A study of Homo sapiens with 12 samples.

Results

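Zinc is moved across the membranes of human cells by 2 families of transporters, and 10 of their genes are described here: the exporters SLC30A1, SLC30A5, SLC30A6, SLC30A7 and SLC30A9 and the importers SLC39A1, SLC39A6, SLC39A9, SLC39A10 and SLC39A14. They were picked by name out of 38478 genes, of which 24 belong to the SLC30 and SLC39 families, and were selected with earlier results of these data in view, in which SLC30A1 and the metallothioneins were higher with AI-10-104. The values that chose them are therefore those of the comparison of AI-10-104 with DMSO, which is given as a description, with no p-value and with nothing read from its count of calls. The question was whether the rest of zinc handling moved with SLC30A1.

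Cells of the human multiple myeloma line OPM-1 were exposed for 48 h to DMSO, to 0.1 µM lenalidomide (LEN), to 1 µM AI-10-104 or to the combination (LEN+AI-10-104), with 3 replicates in each of the 4 conditions. All 12 samples came from this single line, and the treatment is the only labelled difference between them. Lenalidomide directs the cereblon ubiquitin ligase to IKZF1 and IKZF3, and AI-10-104 keeps RUNX proteins from binding CBFβ. Polyadenylated RNA was sequenced, and expression is given as RPKM, reads per kilobase of the deposited gene length, scaled to the library's reads on genes.

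Proteins of the SLC30 family, also called ZnT, lower zinc in the cytosol by moving it out of the cell or into organelles, and proteins of the SLC39 family, also called ZIP, move it into the cytosol. Zinc in excess is bound by metallothioneins, small cysteine-rich proteins. The transcription factor MTF1 senses zinc, binds metal response elements and is known to activate the metallothionein genes and SLC30A1, and to repress SLC39A10. Myeloma cells are malignant plasma cells, whose antibody secretion passes through the endoplasmic reticulum and Golgi, where several of these transporters reside.

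Upstream sequences are shown for 3 exporters and for MT2A, because a metal response element is the sequence through which MTF1 is known to act. RefSeq promoters (GRCh38.p14) were found for 9 of the 10 genes, 12 promoters in all. Each sequence runs 5′ to 3′ on the gene's strand and ends at the start site, or where an annotated exon of the gene begins, and capitals mark each match to the core letters TGCACNC or TGCGCNC on either strand. SLC30A1 (chr1:211579162-211579411, minus strand) is shown as the exporter that changed, SLC30A6 (chr2:32165614-32165840, plus strand) because it has the same match, SLC30A5 (chr5:69093764-69093990, plus strand) because it has none, and MT2A (chr16:56608334-56608583, plus strand) as a metallothionein.
SLC30A1: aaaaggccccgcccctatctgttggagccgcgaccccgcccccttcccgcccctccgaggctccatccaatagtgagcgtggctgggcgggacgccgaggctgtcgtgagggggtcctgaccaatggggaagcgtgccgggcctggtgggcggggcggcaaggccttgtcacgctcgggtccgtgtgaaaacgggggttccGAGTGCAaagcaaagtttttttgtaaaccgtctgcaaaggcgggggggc
SLC30A6: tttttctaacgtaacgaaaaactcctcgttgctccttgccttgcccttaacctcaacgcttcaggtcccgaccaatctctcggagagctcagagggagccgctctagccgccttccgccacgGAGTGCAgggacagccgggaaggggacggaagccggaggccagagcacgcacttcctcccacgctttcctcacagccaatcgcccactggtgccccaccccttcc
SLC30A5: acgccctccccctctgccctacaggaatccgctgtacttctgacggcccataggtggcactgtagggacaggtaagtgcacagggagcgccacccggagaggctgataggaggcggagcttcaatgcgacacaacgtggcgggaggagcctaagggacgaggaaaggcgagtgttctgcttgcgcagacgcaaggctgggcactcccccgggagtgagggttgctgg
MT2A: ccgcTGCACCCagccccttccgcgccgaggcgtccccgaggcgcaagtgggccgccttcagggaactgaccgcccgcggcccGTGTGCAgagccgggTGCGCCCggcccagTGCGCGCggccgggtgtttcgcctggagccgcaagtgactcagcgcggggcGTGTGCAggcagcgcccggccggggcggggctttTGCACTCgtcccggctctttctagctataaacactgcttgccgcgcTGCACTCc

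The SLC30A1 window held 1 match, read as GAGTGCA on the gene's strand and beginning 49 bases before the start site. In SLC30A6 the same letters began 128 bases before the start. SLC39A6 had a match 17 bases before its start, and the second of the SLC39A1 promoters had a match at 236 bases. In all, 4 of the 12 promoters of the zinc transporters held a match, beside 24.8% of 35116 RefSeq promoters searched over the same 250 bases. MT2A held 7 matches, spaced from 246 to 8 bases before the start, and MT1X held 4. The RUNX core letters TGTGGT or TGCGGT were in 0 of the 12 windows and in 16.3% of all promoters. These matches are descriptions of letters and not of binding.

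The samples held 16352548 to 31386210 reads on genes, and each of the 10 genes rested on at least 532 reads in every sample. All 10 passed the filter of a mean of at least 0.5 RPKM, as did 11241 genes in all. All 8 plasma cell markers fixed for the check of the cell line were expressed, with SDC1 at 133 to 156 RPKM, IRF4 at 177 to 227 and XBP1 at 444 to 654. Of the markers of other cell types, EPCAM was listed at 0, COL1A1, CD14 and LYZ stayed at or below 0.234 RPKM and CD3E at or below 0.551, whereas HBB, a globin, lay between 18.2 and 22.9 RPKM in all conditions. In bulk RNA a change in the share of cells and a change in the RNA per cell cannot be told apart. AI-10-104 replicate 2 stood apart: without it, 540 genes rather than 0 passed in the interaction described last, and 0 of them were among the 10 transporters.

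The exporters were expressed at different levels, and only SLC30A1 was called in any tested comparison. SLC30A1, the exporter of the plasma membrane, lies at chr1:211571568-211579161 on the minus strand (GRCh38, GENCODE 44). Its level was 26.4, 27.7 and 25.9 RPKM in DMSO replicates 1 to 3 and 25.6, 27.7 and 25.1 RPKM with LEN. With AI-10-104 it was 39.4, 40.9 and 43.6 RPKM, and with LEN+AI-10-104 it was 40.0, 43.2 and 41.6 RPKM. All 6 samples given AI-10-104 were above all 6 samples without it, and the ranges of DMSO and LEN overlapped, as did those of AI-10-104 and LEN+AI-10-104.

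**Figure D1:**
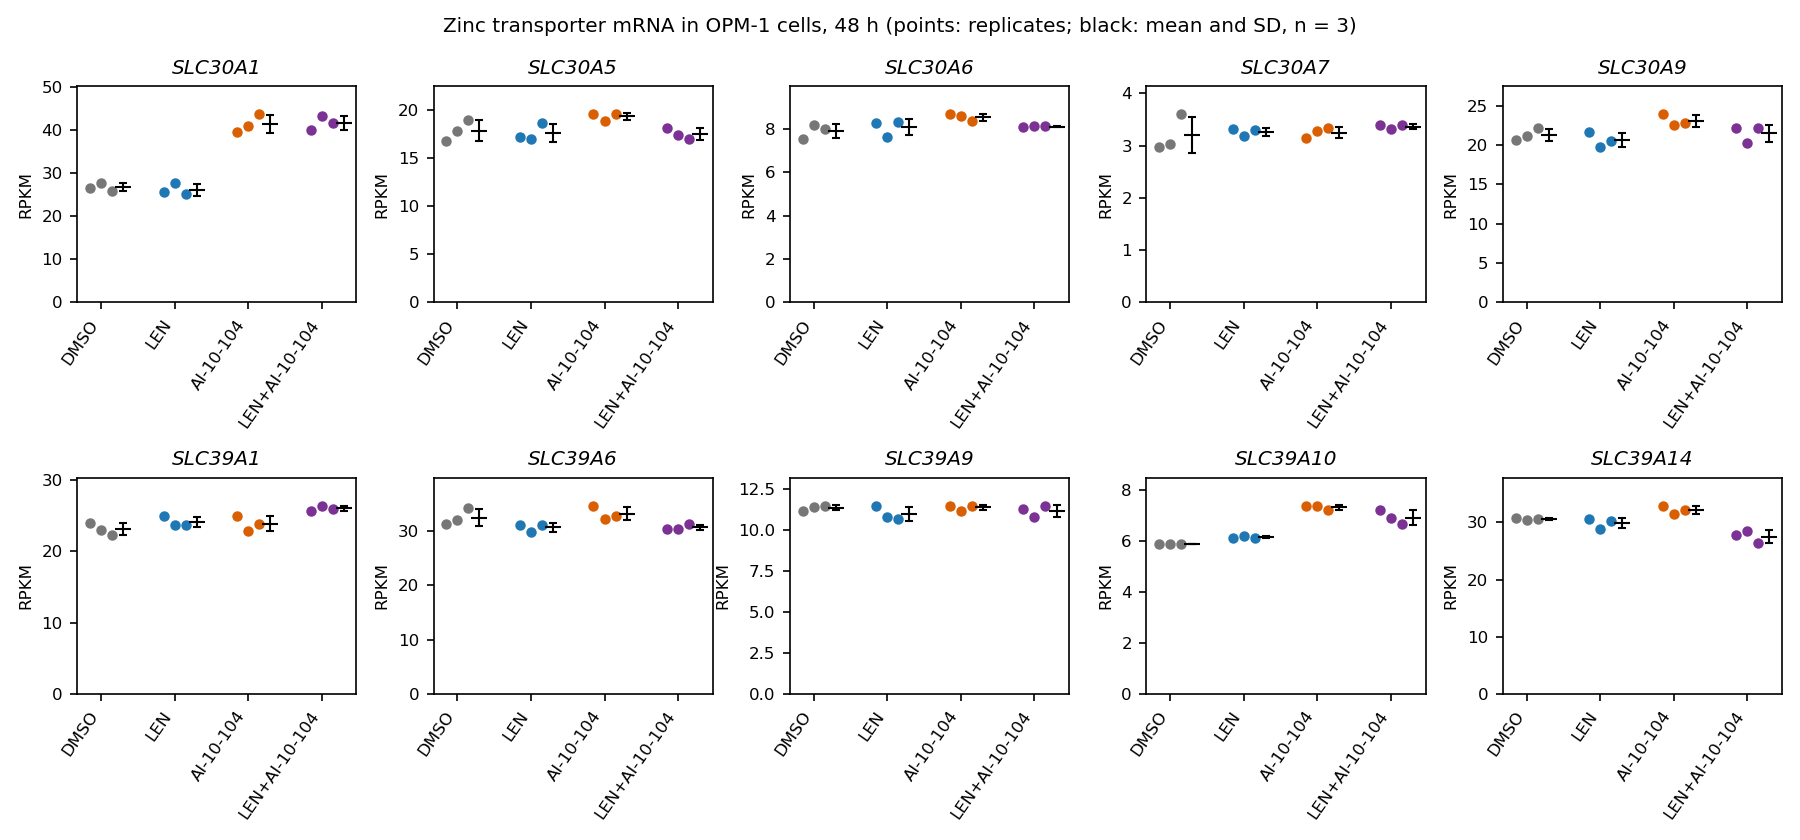
RPKM (vertical axes, from 0) of the 5 exporters (upper row) and 5 importers (lower row) in each replicate of the 4 conditions, with the mean and SD (n = 3) in black beside the points. SLC30A1 separates into 25.1 to 27.7 RPKM without AI-10-104 and 39.4 to 43.6 RPKM with it, and no other transporter shows a gap of that size.

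The response to AI-10-104 was tested in LEN-treated cells, since these 6 samples take no part in the comparison of AI-10-104 with DMSO. The fit still took its spread from all 12 samples. SLC30A1 was chosen with earlier results of these data known, so its rise here is not independent of that choice. SLC30A1 rose with AI-10-104 in the presence of LEN, from 26.1 ± 1.37 to 41.6 ± 1.57 RPKM (mean ± SD, n = 3), which is 1.59-fold. The log2 fold change on log2(RPKM + 0.1) was 0.67 with a 95% interval from 0.56 to 0.78 (limma adjusted p = 1.5e-05 over all genes tested). Genes were called at adjusted p values up to 0.05 where the log2 fold change was also 0.32 or more in either direction. By this rule 1 of the 10 transporters rose and 0 fell, beside 0.872% of all genes that rose and 0.810% that fell. The 98 genes behind the share that rose came to 46, 53, 61 and 62 without LEN+AI-10-104 replicate 1, LEN replicate 1, LEN+AI-10-104 replicate 2 and LEN replicate 3. The median log2 fold change over the 10 genes was 0.033, over the 9 without SLC30A1 it was 0.021, and over all genes tested it was 0.023. Under quantile normalization 64 genes rose and 120 fell in place of 98 and 91, with median-ratio rescaling 72 and 109, and under both SLC30A1 was still the only transporter called.

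SLC30A5 and SLC30A6 form a heterodimer that supplies zinc to enzymes of the secretory pathway, and SLC30A7 serves the same compartments. SLC30A5 (chr5:69093991-69131069) was at 17.2, 17.0 and 18.7 RPKM with LEN and at 18.2, 17.4 and 17.0 RPKM with LEN+AI-10-104. SLC30A6 (chr2:32165841-32224379) was at 8.29, 7.65 and 8.33 RPKM with LEN and at 8.08, 8.13 and 8.14 RPKM with the combination. SLC30A7 (chr1:100896076-100981757) had the lowest RPKM of the 10 genes, between 2.97 and 3.60 over all 12 samples. The ranges of LEN and LEN+AI-10-104 overlapped for SLC30A5 and SLC30A6. Their log2 fold changes were -0.01 for SLC30A5 (95% interval -0.12 to 0.10, limma adjusted p = 0.94), 0.006 for SLC30A6 (-0.09 to 0.10, 0.96) and 0.04 for SLC30A7 (-0.10 to 0.19, 0.76).

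SLC30A9, which is known to carry zinc out of mitochondria, lies at chr4:41990502-42090461. It was at 21.6, 19.8 and 20.5 RPKM with LEN and at 22.1, 20.2 and 22.1 RPKM with LEN+AI-10-104, and these ranges overlapped. The log2 fold change was 0.06 (95% interval -0.05 to 0.16, limma adjusted p = 0.54). Thus the 95% interval of each of the other 4 exporters stayed within 0.192 of 0 on the log2 scale, whereas that of SLC30A1 began at 0.56.

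None of the importers was called with AI-10-104 in LEN-treated cells. SLC39A10 (chr2:195575977-195737702), an importer of the plasma membrane, was at 5.88, 5.89 and 5.87 RPKM with DMSO and 6.13, 6.20 and 6.12 RPKM with LEN. It was at 7.38, 7.39 and 7.22 RPKM with AI-10-104 and at 7.22, 6.90 and 6.66 RPKM with LEN+AI-10-104. As for SLC30A1, every sample given AI-10-104 lay above every sample without it. The log2 fold change of LEN+AI-10-104 against LEN was 0.17 (95% interval 0.08 to 0.25, limma adjusted p = 0.03), which passed the adjusted p but was under the fold threshold. The adjusted p was at most 0.05 in 6 of 12 fits that left out a replicate, and ranged from 0.03 to 0.11 over them.

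SLC39A14, which carries manganese and iron beside zinc, lies at chr8:22367278-22434129. Its level was 30.7, 30.4 and 30.6 RPKM with DMSO and 30.5, 28.9 and 30.2 RPKM with LEN. With AI-10-104 it was 32.9, 31.5 and 32.1 RPKM, above every DMSO sample, and with LEN+AI-10-104 it was 27.7, 28.5 and 26.3 RPKM, below every sample of the other 3 conditions. Against LEN, the log2 fold change of the combination was -0.12 (95% interval -0.20 to -0.04, limma adjusted p = 0.09).

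SLC39A1 (chr1:153959099-153968184) and SLC39A6 (chr18:36108531-36129385) are importers of the plasma membrane, of which SLC39A6 is known to pair with SLC39A10. SLC39A1 was at 25.0, 23.7 and 23.7 RPKM with LEN and at 25.7, 26.4 and 26.0 RPKM with LEN+AI-10-104, without overlap. Its log2 fold change was 0.11 (95% interval 0.02 to 0.20, limma adjusted p = 0.16), so the call was not made. SLC39A6 was at 31.1, 29.7 and 31.0 RPKM with LEN and at 30.3, 30.3 and 31.2 RPKM with the combination, with a log2 fold change of -0.001 (-0.09 to 0.09, limma adjusted p = 0.99). SLC39A9 (chr14:69398015-69462390), a ZIP of the Golgi, stayed between 10.7 and 11.5 RPKM in all 12 samples and had a log2 fold change of 0.02 (-0.06 to 0.11, limma adjusted p = 0.80). SLC39A1 and SLC39A9 overlap CREB3L4 and ERH on the opposite strand, and whether the reads were counted by strand is not given in the sources used here.

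**Figure D2:**
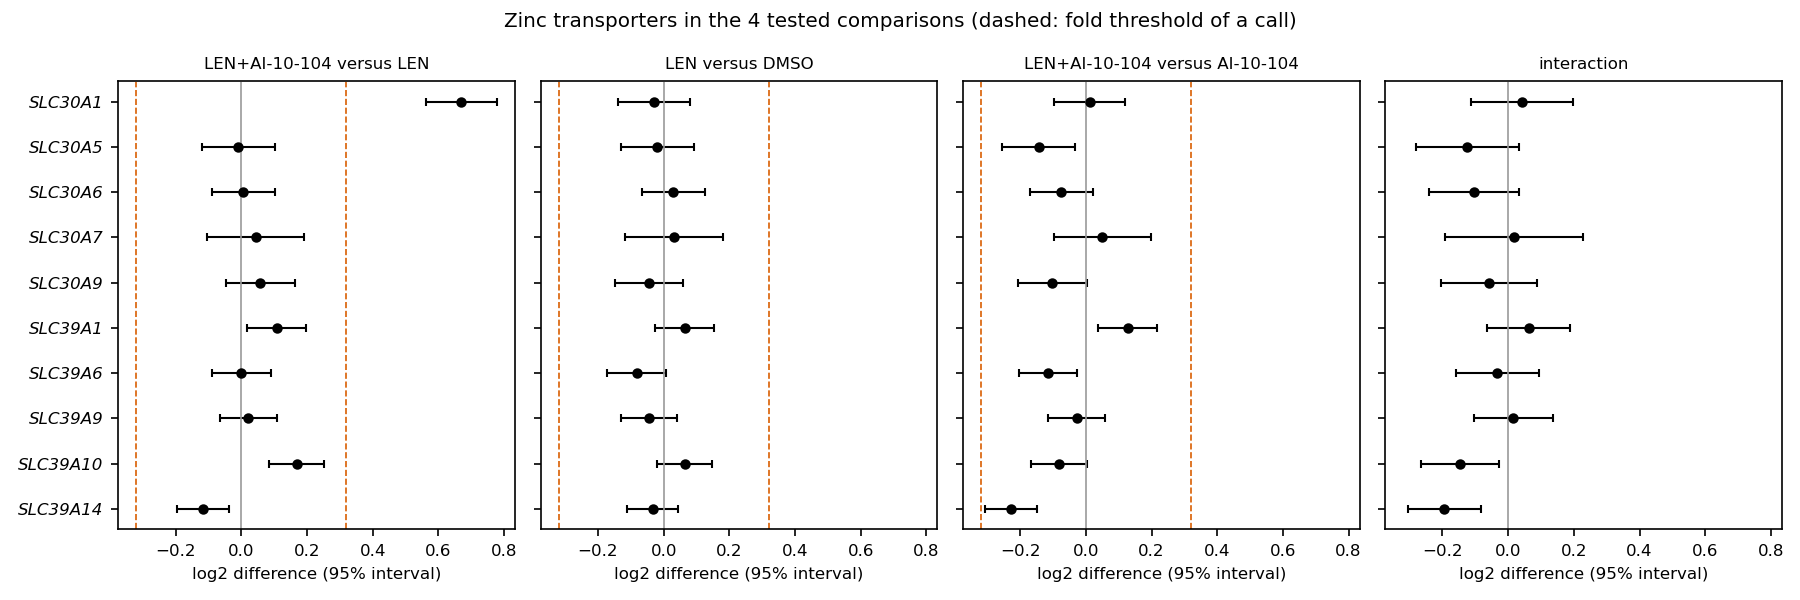
Log2 difference (horizontal axes) with its 95% interval for the 10 transporters in the 4 tested comparisons, with 3 replicates per condition. Dashed lines mark the fold threshold of 0.32, and the only interval beyond it is that of SLC30A1 in LEN+AI-10-104 versus LEN, at 0.67.

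The comparison of AI-10-104 with DMSO, whose values chose the genes, is given as a description. SLC30A1 was at 26.7 ± 0.954 RPKM in DMSO and 41.3 ± 2.11 RPKM in AI-10-104 (SD, n = 3), a log2 fold change of 0.63 ± 0.05 (SE). SLC39A10 followed at 0.31 ± 0.038 (SE), with 5.88 ± 0.00846 RPKM in DMSO and 7.33 ± 0.0946 RPKM in AI-10-104, just under the fold threshold. The other 8 genes lay between 0.005 and 0.12. The rule for calls takes in SLC30A1 here, 1 of the 10 genes upward and 0 downward, where it takes in 0.685% of all genes upward and 1.09% downward. Because the genes were chosen with these values known, this count is no result about them. Between LEN+AI-10-104 and DMSO the log2 fold changes were 0.64 for SLC30A1 and 0.23 for SLC39A10, and the rule takes in 1 of the 10 genes upward and 0 downward, where it takes in 2.30% of all genes upward and 0.641% downward (259 and 72 genes, or 181 and 111 under quantile normalization). This count too is a description, and each of these comparisons shares its DMSO or treated samples with others given here.

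LEN alone left all 10 transporters without a call. Between LEN and DMSO the log2 fold changes ran from -0.08 for SLC39A6 to 0.06 for SLC39A1 and SLC39A10, and that of SLC30A1 was -0.03 (95% interval -0.14 to 0.08, limma adjusted p = 0.92). By limma 0 of the 10 rose and 0 fell, where 0.587% of all genes rose and 0.0623% fell, and 0 of the 10 had an unadjusted p under 0.05, beside 10.7% of all genes. With limma voom on reads computed back, 0 were called as well.

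Of the 10 transporters, adding LEN to AI-10-104 moved SLC39A14 the furthest, and none was called. Outside the 10, SLC39A13 moved further and upward, by 0.28 on the log2 scale (95% interval 0.11 to 0.45, limma adjusted p = 0.034). It too was under the fold threshold. SLC39A14 was at 32.2 ± 0.67 RPKM with AI-10-104 and 27.5 ± 1.09 RPKM with LEN+AI-10-104 (SD, n = 3), without overlap. The log2 fold change was -0.23 (95% interval -0.31 to -0.15, limma adjusted p = 0.0045), which passed the adjusted p and was under the fold threshold. SLC30A1 differed by 0.01 (-0.10 to 0.12, limma adjusted p = 0.90) and SLC39A10 by -0.08 (-0.17 to 0.002, limma adjusted p = 0.16). By limma 0 of the 10 rose and 0 fell, where 3.16% of all genes rose and 0.471% fell (355 and 53 genes, or 248 and 90 under quantile normalization). An unadjusted p under 0.05 was reached by 4 of the 10, beside 33.2% of all genes, and limma voom on reads computed back called 0.

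The interaction tests whether the change with AI-10-104 differed with and without LEN. It takes in the difference between AI-10-104 and DMSO, whose values chose the genes. Its tests for the transporters are therefore not independent of that choice. By limma 0 of the 10 transporters passed, as 0% of all genes did in each direction at an adjusted p of at most 0.05, while 1621 genes, or 14.4%, had an unadjusted p under 0.05. With voom on reads computed back 3 genes passed, of which 0 were transporters. For SLC30A1 the interaction was 0.04 on the log2 scale (95% interval -0.11 to 0.20, limma adjusted p = 0.80). Of the 10 transporters 2 had an unadjusted p under 0.05. These were SLC39A14, at -0.19 (-0.30 to -0.08, limma adjusted p = 0.28), and SLC39A10, at -0.15 (-0.27 to -0.03, limma adjusted p = 0.30). Outside the 10, SLC39A4 at 0.415 and SLC39A13 at 0.279 also had one, with the opposite sign (limma adjusted p = 0.32 for each). For SLC39A14 the adjusted p was 0.0501 without AI-10-104 replicate 2.

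As a level per deposited gene length, SLC30A1 was the third of the 10 genes in DMSO, after SLC39A6 at 32.4 ± 1.51 RPKM and SLC39A14 at 30.5 ± 0.14 RPKM. With AI-10-104, with or without LEN, it was the first. In DMSO, no neighbours in the order had overlapping ranges. Ranges overlapped between SLC39A6 and SLC39A14 in LEN and in AI-10-104, between SLC39A1 and SLC30A9 in AI-10-104, and between SLC39A14 and SLC39A1 in LEN+AI-10-104. SLC30A1 made up 32.9 to 36.8% of the summed RPKM of the 5 exporters in the samples without AI-10-104 and 41.6 to 46.8% in those with it. The sum of the other 4 exporters ran from 47.6 to 55.3 RPKM, and that of the 5 importers from 99.3 to 111 RPKM.

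This order depends on the lengths, and so do the shares and sums of RPKM given with it. The deposited length of SLC30A1 is 2018 bases, where its exons in GENCODE 44 cover 5893, and that of SLC39A10 is 13618, where its exons cover 6917. With the GENCODE exon lengths, tried after the data were seen, SLC30A1 had a mean of 9.13 RPKM in DMSO, the ninth of the 10, and 14.3 RPKM in LEN+AI-10-104, the fifth, and SLC39A6 was the first in all 4 conditions. The same reads were divided by these lengths and were not counted anew over these exons. These values therefore show only how the order depends on the length used. Apart from the pseudocount, fold changes of a gene do not depend on its length.

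Among the other zinc transporters, none was called with AI-10-104 in LEN-treated cells, where 0.872% of all genes rose and 0.810% fell. Of the other 5 SLC30 genes 0 passed the filter on low values. SLC30A4 stayed at or below 0.318 RPKM, and SLC30A2 and SLC30A8, the exporter of insulin granules, were listed at 0. Of the other 9 SLC39 genes 5 were tested, and their log2 fold changes ran from 0.006 to 0.26 with a median of 0.045. SLC39A8, a carrier of zinc and manganese, was the highest of them at 24.4 to 28.9 RPKM, and its log2 fold change was 0.006 (95% interval -0.10 to 0.11, limma adjusted p = 0.96). SLC39A7, the ZIP that releases zinc from the endoplasmic reticulum, was listed at 0 in all 12 samples, with a deposited length of 14724 where its exons cover 4003.

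The metallothioneins MT2A and MT1X rose with AI-10-104 in LEN-treated cells, and MTF1 itself was not called. MT2A was at 13.1, 12.9 and 13.1 RPKM with LEN and at 155, 149 and 149 RPKM with LEN+AI-10-104, a log2 fold change of 3.52 (95% interval 3.36 to 3.68, limma adjusted p = 1.1e-10). MT1X was at 30.9, 33.4 and 29.5 RPKM with LEN and at 166, 165 and 164 RPKM with the combination, a log2 fold change of 2.40 (2.22 to 2.58, limma adjusted p = 1.6e-08). The groups were far apart for both genes, and the log2 fold change of SLC30A1, at 0.67, was smaller than either. MT1G had 0, 6 and 0 reads with LEN and 28, 16 and 40 reads with LEN+AI-10-104. It passed the filter on low values only through the samples given AI-10-104, with means of 0.0386 RPKM in DMSO and 0.162 RPKM in LEN, so its test is not given. MT1E did not pass the filter and had 0, 0 and 1 reads with LEN and 9, 12 and 12 reads with the combination.

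Of the 12 genes of this list 4 passed the filter, MT1G among them as said, and MT1A, MT1B, MT1F, MT1H, MT1M, MT3 and MT4 were listed at 0. How reads that match more than 1 gene were assigned is not given in the sources used here. A listed 0 is therefore not shown to be an absence of RNA. MTF1 was at 5.64, 5.75 and 6.05 RPKM with LEN and at 6.05, 5.88 and 5.92 RPKM with the combination, a log2 fold change of 0.03 (95% interval -0.08 to 0.15, limma adjusted p = 0.76). With LEN alone MT2A fell by 0.35 on the log2 scale (limma adjusted p = 0.049), from 15.4, 19.3 and 15.5 RPKM in DMSO, a call that held in 1 of 12 fits that left out a replicate and in 4 of 10 other settings. The metallothioneins, like SLC30A1, were known from earlier results of these data to be higher with AI-10-104, so their rise is not independent of the choice of genes.

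ZNF658, a repressor that responds to zinc, was below the filter at 0.137 to 0.249 RPKM. Of the list of this repressor and the CBWD genes 2 of 4 were tested. With AI-10-104 in LEN-treated cells 0 were called, where 0.872% of all genes rose and 0.810% fell. The log2 fold changes were 0.14 for CBWD1 (limma adjusted p = 0.097) and 0.06 for CBWD2 (limma adjusted p = 0.70). The CBWD genes are near-identical copies that can share reads.

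Genes of other metals moved in few cases. All 7 copper genes were tested with AI-10-104 in LEN-treated cells, where 0.872% of all genes rose and 0.810% fell. Of the 7, 0 rose and 1 fell. This was ATP7A, the copper-exporting ATPase, at 12.9, 11.8 and 12.4 RPKM with LEN and 9.75, 9.16 and 8.89 RPKM with LEN+AI-10-104, a log2 fold change of -0.41 (95% interval -0.51 to -0.31, limma adjusted p = 0.00041). ATP7A overlaps PGK1 on the same strand, and its deposited length is 8529 bases where its exons cover 28126. How reads in the overlap were assigned is not given in the sources used here. CCS, which delivers copper to superoxide dismutase, was at 14.3, 13.2 and 15.3 RPKM in DMSO and 10.8, 12.1 and 11.0 RPKM in AI-10-104, and rose by 0.40 when LEN was added to AI-10-104 (limma adjusted p = 0.008).

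Of the 8 iron genes 7 were tested, and 0 rose and 0 fell with AI-10-104 in LEN-treated cells, with a median log2 fold change of 0.019. Over all genes 0.872% rose and 0.810% fell in this comparison. HMOX1, the heme oxygenase that heavy metals and oxidative stress are known to induce, had a log2 fold change of -0.20 (95% interval -0.32 to -0.07, limma adjusted p = 0.08). Of the 6 manganese and magnesium genes 5 were tested, and 0 rose and 0 fell, with a median of -0.075 and a lowest value of -0.30 for SLC41A2 (limma adjusted p = 0.056). In the same comparison 0 of the 8 plasma cell markers were called, with a median of 0.12. SLAMF7, a surface receptor of plasma cells, was at 17.9, 20.2 and 19.7 RPKM in DMSO and 31.0, 29.6 and 32.8 RPKM in AI-10-104, a log2 fold change of 0.69. When LEN was added to AI-10-104, SLAMF7 fell by 0.52 on the log2 scale (limma adjusted p = 0.0011) and XBP1, the transcription factor of plasma cell secretion, fell by 0.35 (limma adjusted p = 0.00061).

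**Figure D3:**
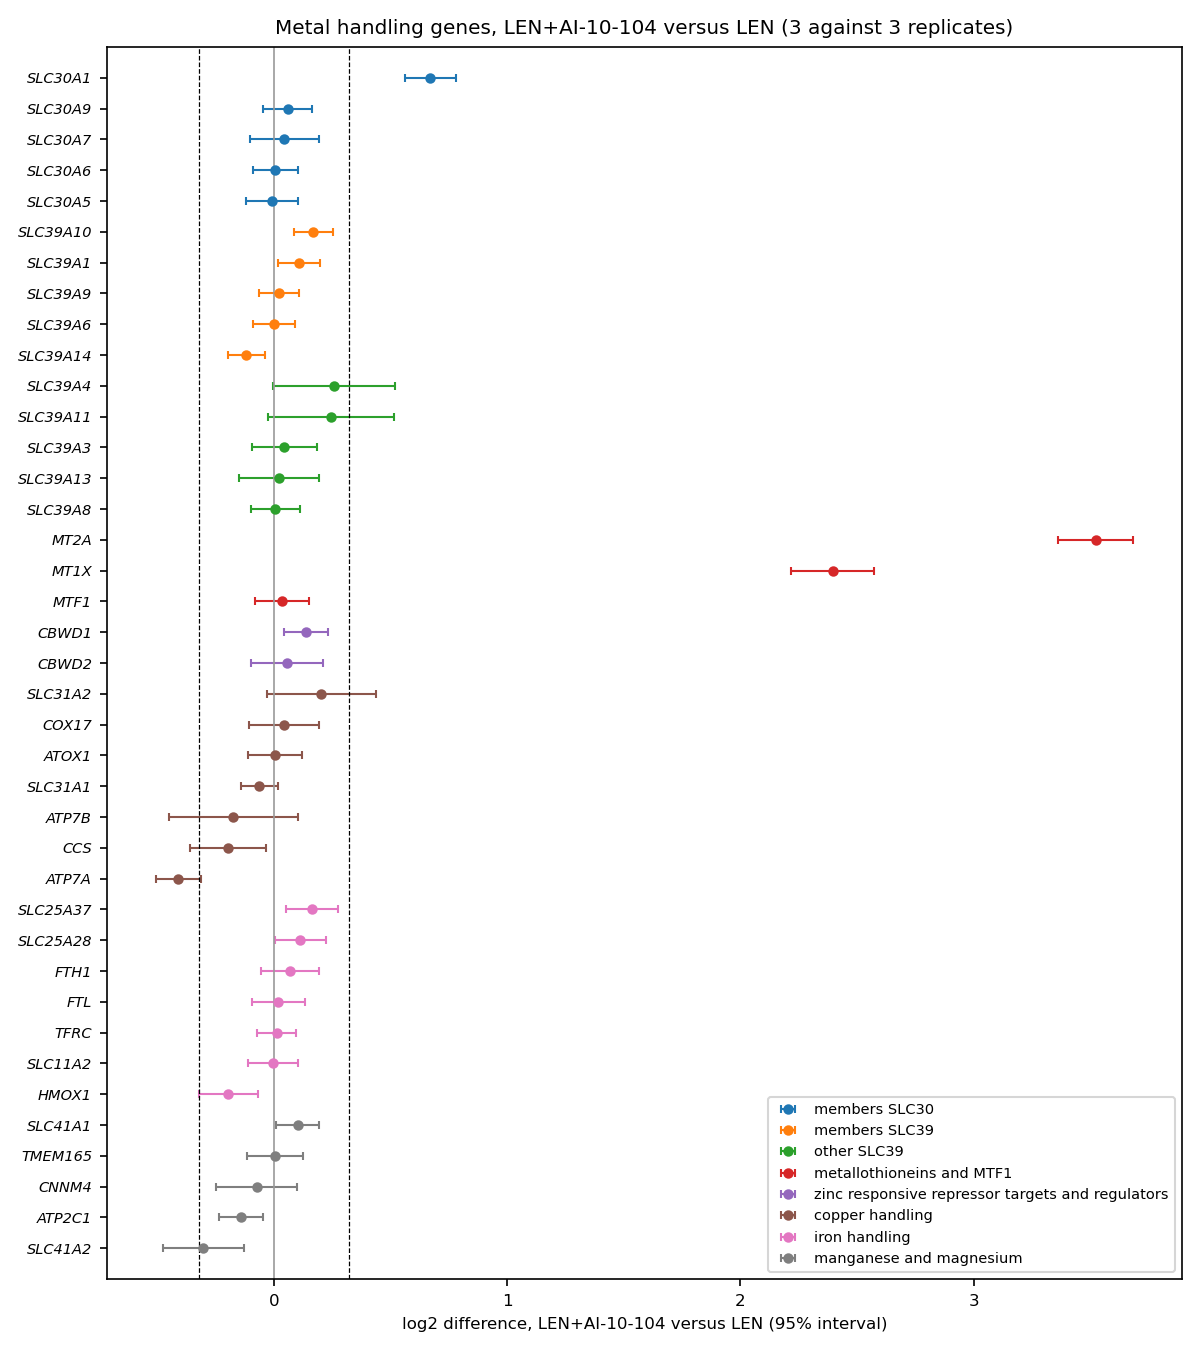
Log2 difference between LEN+AI-10-104 and LEN (horizontal axis) with its 95% interval for the tested genes of the metal lists, coloured by list, 3 against 3 replicates. MT2A at 3.52, MT1X at 2.40 and SLC30A1 at 0.67 lie above the dashed fold threshold of 0.32 and ATP7A at -0.41 lies below the negative one, while MT1G, which passed the filter only through the samples given AI-10-104, is not drawn.

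The genes most like SLC30A1 over the 12 samples were found by the root mean square difference of log2(RPKM + 0.1) after centring each gene. These were TEX14 at 0.116, LOC102724908 at 0.133, RELB at 0.145, TP53INP1 at 0.149 and INSIG1 at 0.150, where a flat profile differed from SLC30A1 by 0.329. RELB, a subunit of NF-κB, had means of 28.1 and 27.7 RPKM in DMSO and LEN and of 35.8 and 39.6 RPKM in AI-10-104 and LEN+AI-10-104. INSIG1, which holds back sterol synthesis, had means of 125, 120, 181 and 159 RPKM in the same order. TEX14 was low, between 0.937 and 1.44 RPKM as means. This is a description over samples that share their treatments. None of the zinc transporters or metallothioneins was among the 5 genes. The measure takes in the size of a change, so genes with far larger or near-flat changes could not be among them. Their absence says nothing about whether they rose in the same samples.

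**Figure D4:**
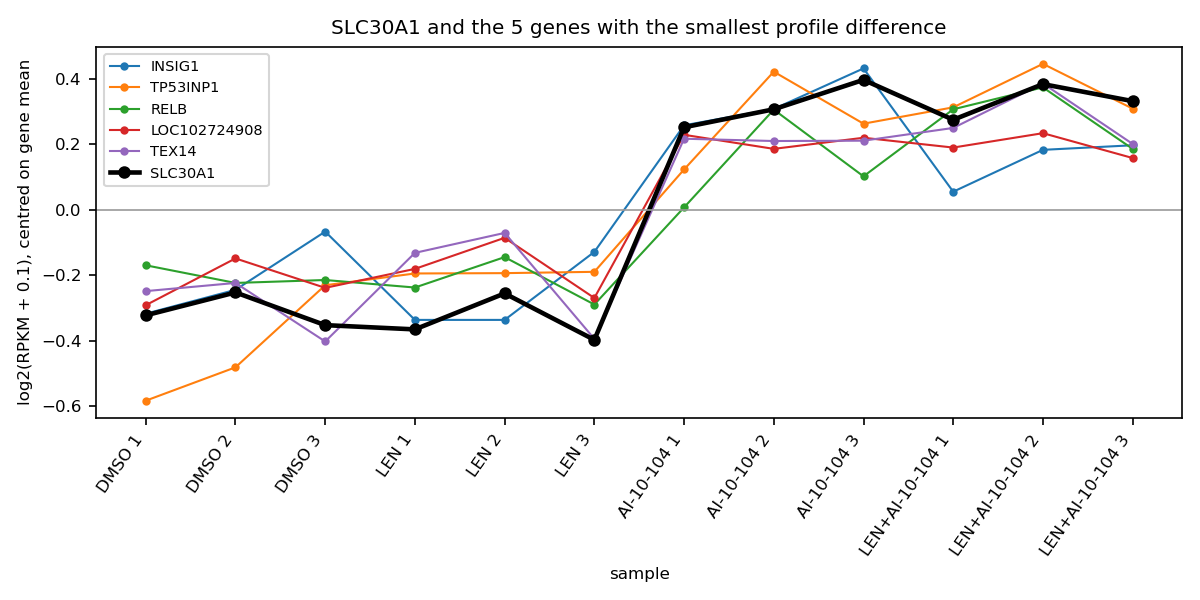
Log2(RPKM + 0.1) centred on each gene's mean (vertical axis) in the 12 samples (horizontal axis) for SLC30A1 (black) and the 5 genes with the smallest root mean square difference from it, 0.116 to 0.150. SLC30A1 lies below 0 in all 6 samples without AI-10-104 and above 0 in all 6 with it.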

How the data were processed

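The 3 biological replicates of each condition were OPM-1 cultures treated for 48 h, and polyadenylated RNA was sequenced. Reads were mapped by the authors with STAR to the GRCh38 genome, and RPKM values were deposited beside the gene lengths behind them, although the deposited table is named for FPKM. RPKM times length added up to 1000000 per sample, and 100% of the values gave whole reads within 0.05. Of the symbols, 28 were spreadsheet date numbers. Using limma 3.58.1 in R 4.3.3, log2(RPKM + 0.1) was fitted for each gene averaging 0.5 RPKM or more, with all 12 samples, a mean for each condition, a variance trend and Benjamini-Hochberg adjustment over 11241 genes. The fit was tested on simulated data. Coordinates are from GENCODE 44, and promoters from RefSeq (GRCh38.p14). Figures were drawn with matplotlib 3.10.9, from tables made in pandas 2.3.3 (Python 3.11.15).

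The transporters and the gene lists were chosen with earlier results of these data known. Named were all 10 transporters, list members called with AI-10-104 with or without LEN, and the 5 genes most like SLC30A1. Others (SLC30A2, SLC30A4, SLC30A8, SLC39A4, SLC39A7, SLC39A8, SLC39A13, MT1E, MTF1, ZNF658, CBWD1, CBWD2, HMOX1, SLC41A2, XBP1 and the metallothioneins listed at 0) were named after their values were seen. Alternatives were pseudocounts of 1 and 0.01, quantile normalization, median-ratio rescaling, filters of 1 RPKM and of any value above 0, a replicate block, fits to the 2 compared conditions, a fit without the variance trend, limma voom on reads computed back, no fold change threshold and leaving out each replicate.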

Additional observations from a re-analysis of the deposited data

Results flagged for a closer look

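For SLC39A14, every LEN+AI-10-104 sample was below every LEN sample, and every AI-10-104 sample was above every DMSO sample. The test of this difference, the interaction, gave -0.194 on the log2 scale (limma adjusted p = 0.28), so it did not pass. SLC39A10 was higher in every LEN sample than in any DMSO sample (6.12 to 6.20 against 5.87 to 5.89 RPKM). It was not higher in any LEN+AI-10-104 sample than in the lowest AI-10-104 sample. Its interaction of -0.146 (limma adjusted p = 0.30) did not pass. How many of all genes show such separations of samples, here or for the transporters above, was not counted. The separations are therefore descriptions. The AI-10-104 and DMSO values in them are also those that chose the genes.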

How the results depend on the processing

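The log2 fold change of SLC30A1 between LEN+AI-10-104 and LEN was 0.64 to 0.71 over 12 fits that left out a replicate (limma adjusted p 2e-05 to 0.0002) and 0.65 to 0.67 under 10 other settings (at most 0.00068). Of 1310 alternative values for 60 values of the transporters, 1 crossed the threshold and 0 called values changed sign, while 41 values that were not called did, none larger than 0.067. With no fold change threshold, 2 transporters were called in LEN+AI-10-104 versus LEN (SLC30A1, SLC39A10) and 1 in LEN+AI-10-104 versus AI-10-104 (SLC39A14). Of the 11241 genes tested, this rule called 519 in the first comparison and 1683 in the second. SLC30A1, 1 of the 2 transporters called in the first, was chosen with its rise with AI-10-104 known. The second count rests on 1 transporter. Nothing is therefore read from how the transporters compare with all genes under this rule. The rule called 2 transporters in AI-10-104 versus DMSO and 4 in LEN+AI-10-104 versus DMSO (with SLC39A1). Over all genes it called 512 and 971 there. These counts are a description, since the values chose the genes or share their DMSO samples. Without AI-10-104 replicate 3, SLC39A10 reached 0.325 in AI-10-104 versus DMSO, so that 1 to 2 genes met the rule there when a replicate was left out, which says nothing about stability. SLC39A10 kept its sign in LEN+AI-10-104 versus LEN (0.138 to 0.195) and SLC39A14 in LEN+AI-10-104 versus AI-10-104 (-0.253 to -0.196) under every setting.

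Same-numbered samples had correlations of -0.0272 to 0.155 over 18 pairs (mean 0.0522), against a mean of -0.0261 over 36 pairs of other numbers. A minimum of 0.1 in every pair, set for pairing, was not reached. Even so, 12 of 12 samples correlated best with their own number. Samples of the same number were thus somewhat alike, and the main fit takes no account of it. With the replicate block 1 transporter was called in LEN+AI-10-104 versus LEN and 0 in LEN versus DMSO, in LEN+AI-10-104 versus AI-10-104 and in the interaction, as without it. Over all genes the block called 218 in LEN+AI-10-104 versus LEN in place of 189, and 473 in LEN+AI-10-104 versus AI-10-104 in place of 408.

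Counts over all genes moved more. Without AI-10-104 replicate 2, 443 genes were called in AI-10-104 versus DMSO in place of 199 and 764 in LEN+AI-10-104 versus AI-10-104 in place of 408. Without AI-10-104 replicates 1 or 3 or LEN+AI-10-104 replicate 1 the latter came to 183, 213 and 221, and leaving out AI-10-104 replicate 1 or 3 or DMSO replicate 1 brought the former to 119, 129 and 127. In LEN versus DMSO, 35, 41, 46 and 48 genes were called without LEN replicates 1 or 3 or DMSO replicates 2 or 3, in place of 73. Fits to the 2 compared conditions called 113 in AI-10-104 versus DMSO and 243 in LEN+AI-10-104 versus AI-10-104. With no fold change threshold, 519 genes were called in LEN+AI-10-104 versus LEN in place of 189, 127 in LEN versus DMSO, 1683 in LEN+AI-10-104 versus AI-10-104, 512 in AI-10-104 versus DMSO and 971 in LEN+AI-10-104 versus DMSO in place of 331. The causes were not tested.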
